A study of Mus musculus with 15 samples.

Results

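RNA polymerase II (RNAPII) cover of gene bodies was compared between 30 min and 2 h after activation of Myc in mouse fibroblasts. The body of a gene was its span without the first 1000 bp, and cover was the percent of that body lying under RNAPII peaks of one library. Protein-coding genes of at least 3000 bp were examined, 18089 of 22238 gene symbols. A body was called covered from 50% and not covered under 25%. Genes covered at both times were called kept, genes covered at 30 min and not covered at 2 h were called gone, and genes not covered at 30 min and covered at 2 h were called only at 2 h. The authors deposited 2 kinds of peak list for each RNAPII library, one that they named broad and one that is called narrow here. In the narrow lists 2030 genes fell into these classes, and in the broad lists 428. Either kind of list held 2035 of them.

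RNAPII is the enzyme that transcribes protein-coding genes. It is recruited to promoters, pauses shortly after the start at many of them, and is released into the gene body by kinases such as P-TEFb, so that peaks along a body mark genes being traversed by the enzyme. Myc is a transcription factor that binds DNA as a dimer with Max, prefers the E-box CACGTG, and is known for its occupancy of active promoters and for genes of cell growth. Genes induced by serum and growth factors through MAP kinases and the SRF cofactors are another group whose transcription is known to come and go within hours in fibroblasts.

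The cells were 3T9 fibroblasts derived from mouse embryos of E13.5. Their genotype was c-myc flox/flox, and they had been infected in vitro with MycER, a fusion of Myc with a hormone-binding domain of the oestrogen receptor, carried on a pBabe bleomycin construct. MycER was activated with 400 nM OHT (4-hydroxytamoxifen), and chromatin immunoprecipitation with sequencing was done with the RNAPII antibody N20 at 0, 10, 20 and 30 min and at 2 and 4 h, and with the Myc antibody N262 at the same times. The reference in time for each antibody was its library at 0 min, from cells of the same genotype that carried the same construct. It was not the control of the peak calls, since the lists at 0 min were themselves called against a control. The series also holds an input library. The labels do not say whether the endogenous c-myc alleles had been deleted, so peaks of the N262 antibody are called Myc peaks without assigning them to Myc or MycER. There was 1 library per antibody and time, and nothing in the labels ties or separates the cultures, so no difference between times had a replicate error and no p-value is given.

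Depth differed between the libraries. The file headers give 16274905 RNAPII tags at 30 min and 19859793 at 2 h, which is 1.22 times as many, and the 20 min library was the deepest with 36396286 tags. The narrow lists held 18676 peaks at 30 min, with a median length of 2871 bp, and 17933 peaks at 2 h, with a median of 3138 bp. The broad lists held 18540 and 19477 peaks, whose medians of 854 and 842 bp were shorter than those of the narrow lists. Myc tags were near equal, 33329758 at 30 min and 33149982 at 2 h, with 22996 and 27388 peaks. Of 9 fibroblast markers, 5 had a covered body in the narrow lists at both times, with a summed cover of 515 points at 30 min and 528 points at 2 h, and Thy1 was at 0. No body of 10 B cell markers, of 9 T and myeloid cell markers, of 9 neuronal or of 9 hepatocyte markers was covered at either time. All 9 hepatocyte markers were at 0, and so were 8 of the B cell markers, among them Cd79a and Ms4a1. The claudin gene Cldn7, with 100% at both times, was the 1 covered gene of 9 epithelial markers, and Epcam and Krt8 were at 0.

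The narrow lists lacked some regions that the broad lists of the same library held. At 30 min 1157 broad peaks (6.24%) overlapped no narrow peak, and at 2 h 1176 did (6.04%), and at 20 min the share was 12.9%. Such a region gives a narrow cover of 0 over a body where the broad list has peaks. Nedd4, which encodes a ubiquitin ligase, had narrow covers of 100% and 0% at 30 min and 2 h, while its broad covers were 38.0% and 65.2%. A gene with such a region was marked as having a list gap, and the results are given without these genes wherever they were many. They made up 37 of the 109 genes called gone and 19 of the 104 called only at 2 h, but 12 of the 1817 kept genes.

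In the narrow lists 2085 bodies were covered at 30 min, 11.5% of the genes tested. The kept class held 1817 genes (10% of the genes tested), or 87.1% of those covered at 30 min. The gone class held 109 (0.603%) and the class only at 2 h 104 (0.575%). Without list-gap genes these counts were 1805, 72 and 85. A further 159 genes (0.879%) were covered at 30 min and between 25 and 50% covered at 2 h. In the broad lists 458 bodies were covered at 30 min (2.53%), of which 385 were kept (2.13% of the genes tested), 22 were gone (0.122%) and 51 were between the limits at 2 h (0.282%). Only at 2 h held 21 genes in the broad lists (0.116%). The classes were made from these 2 libraries, so their cover at 30 min and 2 h is a description and carries no test. The median difference over all genes, 2 h minus 30 min, was 0 points in both kinds of list.

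Genes lay close to the limits on both sides. Dctpp1 was just inside the narrow kept class at 2 h with 50.1%, and Grwd1 just outside it with 49.9%. Ptp4a1 was just inside the gone class with 24.8% at 2 h, and Irs2 just outside with 25.1%. Eif3k was just inside the class only at 2 h with 24.9% at 30 min, and Trim32 just outside with 25.02%.

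The 2 kinds of list named largely different genes for the bodies that differed. Of the 385 kept in the broad lists, 375 (97.4%) were also kept in the narrow lists. The genes gone in both were 1, S100a10, which is 4.55% of the broad class and 0.917% of the narrow class. Of the 22 genes gone in the broad lists 18 were kept in the narrow lists, and of the 21 covered only at 2 h in the broad lists 20 were. Most genes gone in the broad lists thus still had narrow peaks over the body, and 88 of the 109 gone in the narrow lists were not covered in the broad list at either time. Members also shared peaks with neighbouring members: 404 of the kept genes in the narrow lists (22.2%) had their longest peak in common with another kept gene, against 11 of the genes gone (10.1%) and 2 of those only at 2 h (1.92%). Of the broad class 44 kept genes (11.4%) shared their longest peak, and none of the 22 and 21 others did.

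The times that the classes did not use gave each class a course of its own (shown in the plot of mean cover by class). In the broad lists the 22 genes gone by 2 h had a mean cover of 19.1% before OHT, 54.7, 84.9 and 66.9% at 10, 20 and 30 min, and 11.3 and 8.58% at 2 and 4 h. All 22 were covered at 20 min (5.05% of all genes were), 17 were not covered at 0 min (96.4% of all genes) and 20 were not covered at 4 h (95.9% of all genes). The 385 kept genes had a mean of 68.1% before OHT, 85.1, 93.6 and 83.8% at 10, 20 and 30 min, and 83.4 and 76.8% at 2 and 4 h. Cover in the kept class was thus already high before OHT, whereas the class gone by 2 h was low at 0 min, high from 10 to 30 min and low again at 2 and 4 h. The 21 genes only at 2 h had a mean of 30.9% before OHT, 37.5, 67.3 and 13.8% at 10, 20 and 30 min, and 62.97 and 42.7% at 2 and 4 h. Of these 21 genes 18 were covered at 20 min, so that few of them were bodies first covered at 2 h. The 20 min library was the deepest and its mean over all genes was also the highest, 6.63% in the broad lists against 3.67% at 30 min and 4.02% at 2 h, and the part of depth in these courses was not tested.

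**Figure D1:**
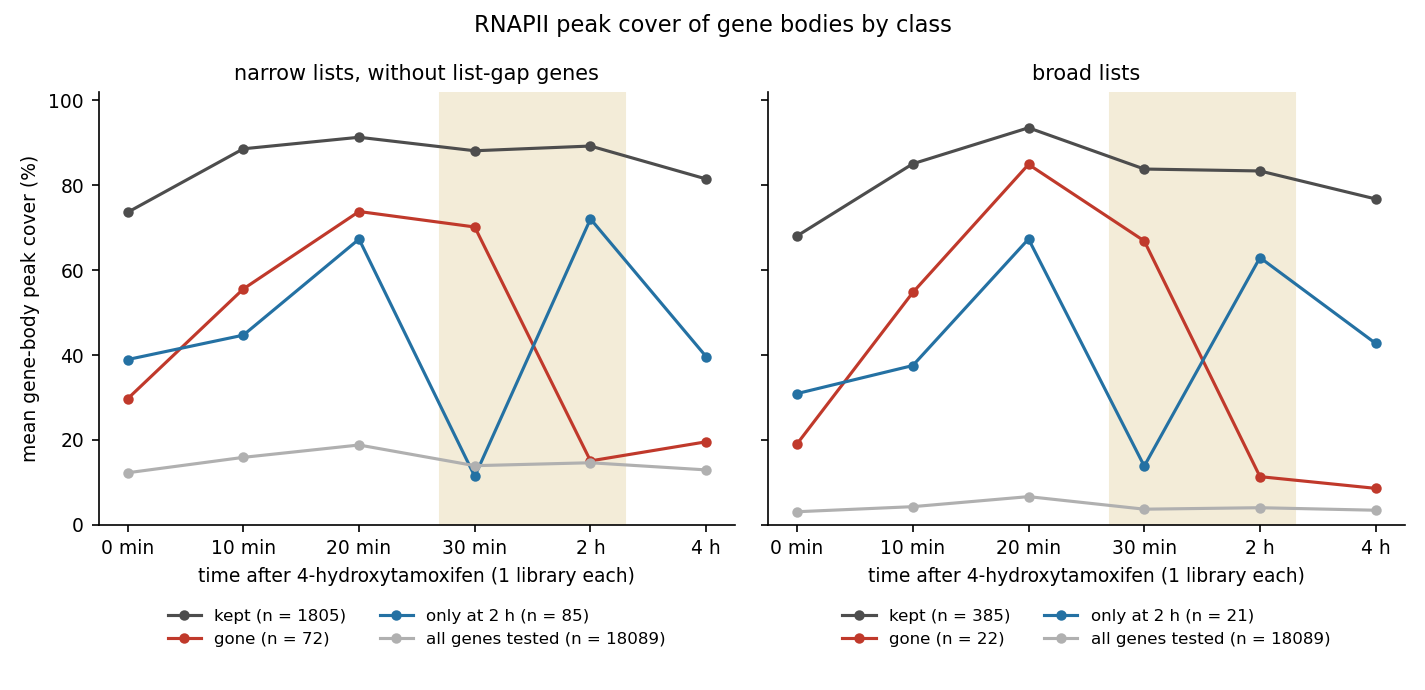
Mean RNAPII peak cover of gene bodies (percent, y axis) at 6 times after OHT (x axis, 1 library each) for genes kept, gone by 2 h and covered only at 2 h, and for all 18089 genes tested, in the narrow lists without list-gap genes (left) and the broad lists (right). The shaded times, 30 min and 2 h, made the classes; at the other times the class gone by 2 h sat lowest at 0 min and 4 h and highest at 20 min.

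The narrow lists without list-gap genes gave courses of the same form. The 72 genes gone by 2 h had a mean of 29.7% before OHT, 55.6, 73.8 and 70.2% at 10, 20 and 30 min, and 15.05 and 19.6% at 2 and 4 h. Of these 72 genes 38 were not covered at 0 min (84.9% of all genes were not). Of the 38, 30 were covered at 20 min, against 16.5% of all genes, and 32 (84.2%) were not covered at 4 h, near the share of all genes (84.1%). The 1805 kept genes had means between 73.6% at 0 min and 91.3% at 20 min, and 200 of them were not covered at 0 min. Those 200 genes had a mean of 10.96% before OHT, 70.8, 87.7 and 81.5% at 10, 20 and 30 min, and 78.7 and 63.6% at 2 and 4 h, and 128 of them (64.0%) were covered at 4 h, against 10.5% of all genes. The 85 genes only at 2 h had a mean of 38.9% before OHT, 44.7, 67.3 and 11.4% at 10, 20 and 30 min, and 72.1 and 39.6% at 2 and 4 h, and 68 of the 85 were covered at 1 or more of 0, 10 and 20 min. Over all genes the narrow mean was 12.2% before OHT, 15.9, 18.8 and 13.9% at 10, 20 and 30 min, and 14.6 and 12.9% at 2 and 4 h.

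The broad genes gone by 2 h included 3 of the negative regulators of receptor and MAP kinase signalling. Errfi1 encodes Mig6, an inhibitor of the EGF receptor, and its body had a broad cover of 10.5% before OHT, 84.8, 99.5 and 100% at 10, 20 and 30 min, and 15.5 and 5.42% at 2 and 4 h. At 30 min 1 broad peak, chr4:150228842-150247612 (mm9, as are all coordinates here), ran over the gene (chr4:150228028-150243001), and at 2 h the 1 broad peak left was chr4:150228848-150231192 at its start. Dusp5 encodes a nuclear phosphatase of ERK, and its broad cover was 17.6% before OHT, 89.6, 100 and 76.01% at 10, 20 and 30 min, and 14.6 and 4.93% at 2 and 4 h. Dusp6 encodes the cytoplasmic phosphatase of ERK, and its broad cover was 0% before OHT, 28.9, 93.5 and 55.99% at 10, 20 and 30 min, and 0 and 0% at 2 and 4 h. The narrow cover of Dusp6 was also lower at 2 h, 25.2% against 100% at 30 min, whereas Errfi1 and Dusp5 remained at 100% there. All 3 bodies were high at 20 and 30 min and low at 0 min, 2 h and 4 h in the broad lists.

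Of 13 MAPK feedback genes tested, 4 were covered in the broad list at 30 min, of which 0 were kept and 3 gone. Of all 458 genes covered in that list 84.1% were kept and 4.80% gone. Besides the 3 genes above, Spry2, a Sprouty inhibitor of receptor tyrosine kinase signalling, had 81.5% and 26.3% at the 2 times, just above the limit at 2 h. The mean broad cover of the 13 genes was 5.77% before OHT, 22.9, 33.7 and 26.3% at 10, 20 and 30 min, and 5.85 and 2.48% at 2 and 4 h. The median difference of the list, 2 h minus 30 min, was 0 points, as over all genes. By at least 20 points, 4 of the 13 were lower at 2 h and none was higher, and over all genes 0.564% were lower and 0.951% higher by as much in the broad lists. The narrow lists differed: 6 of the 13 were covered at 30 min, of which 5 were kept and 0 gone. Of all genes covered in that narrow list 87.1% were kept and 5.23% gone. By at least 20 points 2 of the 13 were lower in the narrow lists and 1 was higher.

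Dusp5 and, among the annexins described further on, Anxa5 carry a CArG box, the binding site of the serum response factor SRF, close to their start. The boxes are shown in capitals in 30-base runs of the mm9 sequence, 5′ to 3′ on the strand of the gene, because SRF sites are known from genes of the serum response. The end of the Dusp5 run, ccttatatgg, also matches the box and is left in lower case.
Dusp5, chr19:53603543-53603572 (+): ggggaaatacCCATATTTGGccttatatgg
Anxa5, chr3:36374765-36374794 (-): cgggctgggaCCTAATTAGGgaggtggcca

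Other signalling genes were in the same class. Epha2 encodes an ephrin receptor, and its broad cover was 20.8% before OHT, 69.5, 95.2 and 85.9% at 10, 20 and 30 min, and 11.5 and 0% at 2 and 4 h. Trib1 encodes a pseudokinase that directs the degradation of C/EBP proteins, and had 10.4% before OHT, 62.6, 98.1 and 94.8% at 10, 20 and 30 min, and 11.4 and 9.89% at 2 and 4 h. Clcf1 encodes a cytokine of the IL-6 family and had 36.6% before OHT, 68.9, 93.9 and 65.6% at 10, 20 and 30 min, and 18.2 and 22.4% at 2 and 4 h. These 3 bodies had their highest broad cover at 20 min, and all 3 were kept in the narrow lists. Among the transcription regulators, Bhlhe40, a repressor of the circadian clock, had 0% before OHT, 24.7, 77.9 and 53.9% at 10, 20 and 30 min, and 0 and 0% at 2 and 4 h. Klf16 had 0% before OHT, 23.5, 98.3 and 72.4% at 10, 20 and 30 min, and 7.78 and 1.68% at 2 and 4 h. Hmga2, which encodes an architectural chromatin protein of embryonic and transformed cells, had 37.1% before OHT, 94.3, 96.3 and 80.1% at 10, 20 and 30 min, and 20.6 and 6.60% at 2 and 4 h, while its narrow covers were 100% and 90.2% at 30 min and 2 h. Trib1 and Bhlhe40 had a narrow cover of 100% at both of these times, and Klf16 was also kept in the narrow lists.

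The E-box CACGTG, which reads the same on both strands, was searched in the mm9 sequence in the 200 bp centred on the summit of each Myc promoter peak. Of the genes just described, 4 had one, shown in capitals on the strand of the gene.
Trib1, chr15:59479132-59479161 (+): tctggcgccagcCACGTGggccccttccgc
Klf16, chr10:80040788-80040817 (-): gggagggtcgcgCACGTGgcccgggggcgg
Bhlhe40, chr6:108609425-108609454 (+): ccgcgtccgggcCACGTGaagcgtcacgcc
Hmga2, chr10:119914252-119914281 (-): tgctggcgggagCACGTGagccggggctcc

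**Figure D2:**
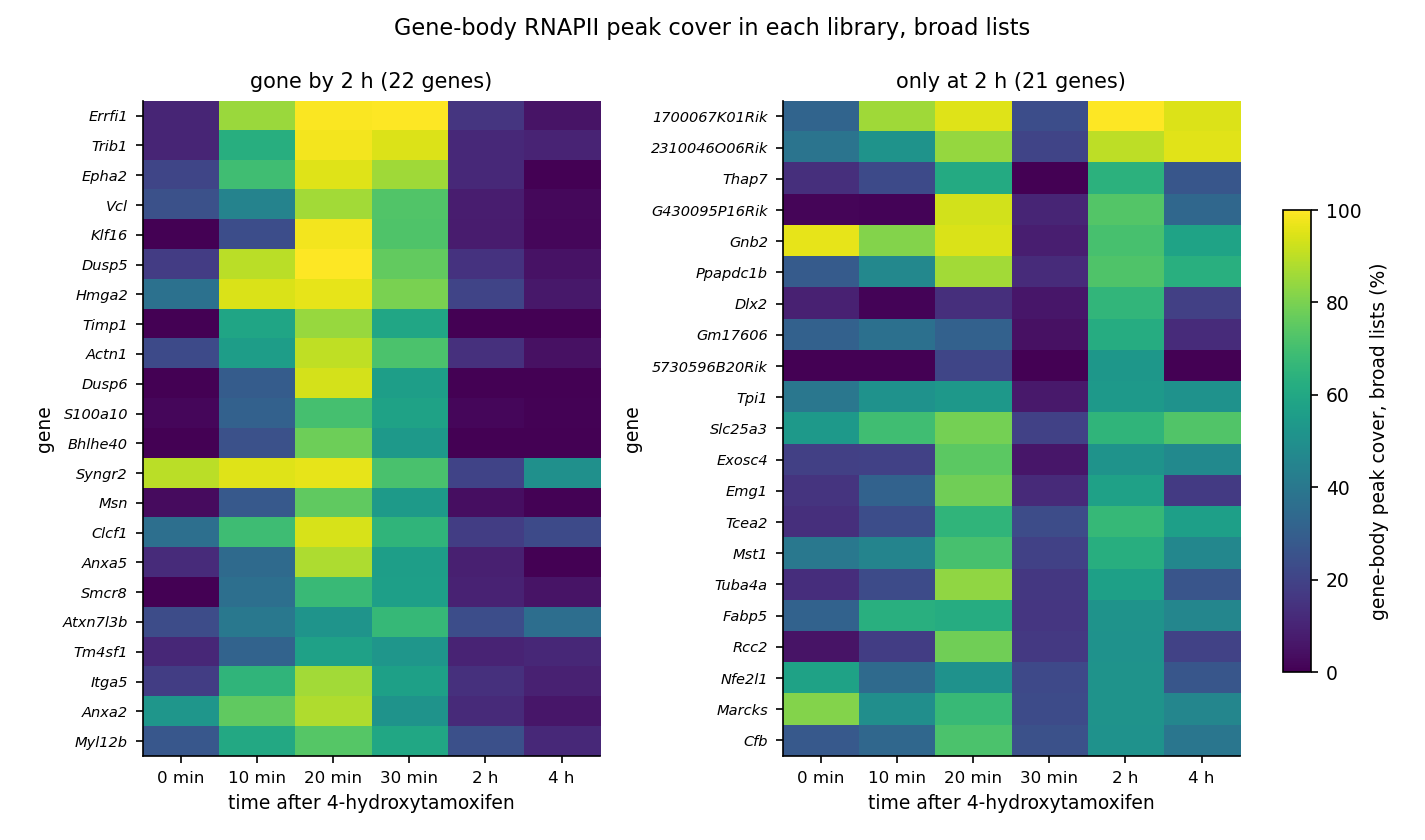
Broad cover of the gene body (percent, colour) at 6 times after OHT (columns, 1 library each) for each of the 22 genes gone by 2 h and the 21 genes covered only at 2 h (rows). All 22 genes of the first set were covered at 20 min, and 18 of the 21 of the second set were covered at 20 min before they were low at 30 min.

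The broad genes gone also included genes of the cytoskeleton and of adhesion and a pair of annexin genes. Itga5, the fibronectin receptor subunit, had a broad cover of 18.2% before OHT, 65.3, 85.98 and 56.7% at 10, 20 and 30 min, and 14.1 and 9.29% at 2 and 4 h. Vcl, which encodes the focal adhesion protein vinculin, had 24.6% before OHT, 44.7, 86.2 and 72.7% at 10, 20 and 30 min, and 7.95 and 2.31% at 2 and 4 h. Actn1, which encodes an actin cross-linker, had 22.6% before OHT, 55.6, 90.6 and 71.8% at 10, 20 and 30 min, and 13.98 and 4.34% at 2 and 4 h. The narrow cover of Itga5 was 100% at 30 min and at 2 h. Vcl and Actn1 have a list gap, and the narrow cover of Actn1 was in the opposite order, 0% at 30 min against 96.1% at 2 h. Msn, the gene of moesin, which links actin to the membrane, also has a list gap and the opposite order in the narrow lists, with 54.4% and 3.69% in the broad lists. The annexin genes Anxa2 (51.4% and 11.7%) and Anxa5 (56.2% and 8.90%), which encode calcium-dependent membrane-binding proteins, were lower at 2 h than at 30 min in the broad lists. Both were kept in the narrow lists, where Anxa5 had 100% and 61.8%. S100a10 encodes the partner of annexin A2, and was the gene gone in both kinds of list: its broad cover was 1.93% before OHT, 31.1, 70.6 and 57.7% at 10, 20 and 30 min, and 1.93 and 0.677% at 2 and 4 h. Its narrow cover was 100% from 0 to 30 min, 12.3% at 2 h and 36.3% at 4 h. The narrow peak of S100a10 was chr3:93357838-93373865 at 30 min and chr3:93358140-93361057 at 2 h, when it ended inside the gene (chr3:93359002-93368565).

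Of 29 actin and adhesion genes tested, 14 were covered in the broad list at 30 min, of which 7 were kept, 3 (Actn1, Itga5 and Vcl) were gone and 4 lay between the limits at 2 h. By at least 20 points 10 of the 29 were lower at 2 h and none was higher, with a median difference of -2.49 points against 0 over all genes. Their mean broad cover was 36.2% before OHT, 45.7, 60.2 and 45.02% at 10, 20 and 30 min, and 29.5 and 21.9% at 2 and 4 h. Tpm4, a tropomyosin gene, had 84.8% and 26.1% at 30 min and 2 h, and the calponin gene Cnn2 91.3% and 49.5%. Actb and Tpm1 were at 100% at both times. Itgb1, the common beta subunit of the integrins, was under the limit of the class at 30 min in the broad list, but was lower at 2 h in both kinds of list, with a narrow cover of 99.9% and 28.1% and a broad cover of 39.2% and 0%. By the narrow lists 5 of the 29 were lower by 20 points and 3 were higher (2.29% and 3.26% of all genes). Of the list's genes 5 have a list gap.

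The secreted proteins in the class were few. Timp1, an inhibitor of matrix metalloproteinases, had a broad cover of 0% before OHT, 58.9, 84.8 and 59.4% at 10, 20 and 30 min, and 0 and 0% at 2 and 4 h. Its narrow covers were 100% and 87.8% at 30 min and 2 h. In the broad lists Timp1 was the 1 gene gone of 28 matrix genes tested. Of those 28, 6 were covered at 30 min and 4 kept, among them Col1a1 (100% at both times) and Fn1 (98.8% and 93.4%). The remaining genes gone in the broad lists were Syngr2, Smcr8, Atxn7l3b, Tm4sf1 and Myl12b. Atxn7l3b was higher at 2 h when only peaks of a p of 1e-12 or smaller were used.

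The largest differences between the narrow lists were list gaps. The 12 genes of the gone class with the largest difference all had one: Nedd4, Fgf7, Efnb2, Wdr43, Sf3b3, Ywhae, Angptl2, Arglu1, Eif2s2, Hnrnpd, Arpc1b and Nob1 all had a narrow cover of 0% at 2 h, while Wdr43, a factor of ribosome assembly, had broad covers of 57.2% and 55.04% at the 2 times. The genes below were ranked without such genes. Spp1, which encodes the matrix cytokine osteopontin, had a narrow cover of 31.8% before OHT, 100, 100 and 100% at 10, 20 and 30 min, and 2.13 and 25.7% at 2 and 4 h. Plk3, a stress-responsive kinase of the polo family, had 8.77% before OHT, 66.6, 100 and 100% at 10, 20 and 30 min, and 8.45 and 3.25% at 2 and 4 h. Btg2, an antiproliferative immediate-early gene, had 32.8% before OHT, 100, 100 and 100% at 10, 20 and 30 min, and 10.03 and 11.4% at 2 and 4 h. These 3 had no broad cover that reached 50% at 30 min, so their place in the class comes from the narrow lists alone.

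Genes of growth factor signalling, matrix and metabolism were also in this set. Ereg encodes the EGF receptor ligand epiregulin, and its narrow cover was 24.9% before OHT, 97.4, 96.7 and 95.9% at 10, 20 and 30 min, and 5.66 and 10.3% at 2 and 4 h. Its longest narrow peak was chr5:91499596-91507810 at 30 min and chr5:91499896-91505663 at 2 h, in the first part of the gene (chr5:91503643-91522675). Has2, the gene of hyaluronan synthase, had 38.8% before OHT, 60.4, 60.4 and 96.6% at 10, 20 and 30 min, and 20.99 and 13.4% at 2 and 4 h. Hk2 encodes a hexokinase of the first step of glycolysis and is known as a target of Myc, and had 3.25% before OHT, 35.5, 98.3 and 95.1% at 10, 20 and 30 min, and 19.6 and 8.44% at 2 and 4 h. Klf5, a growth-related Krüppel-like factor, had 7.10% before OHT, 18.1, 100 and 92.4% at 10, 20 and 30 min, and 9.48 and 15.7% at 2 and 4 h. In the narrow lists each of the 4 was high at 30 min and low at 0 min, 2 h and 4 h, except that Has2 was intermediate at 0 min. The broad cover at 30 min was 7.85% for Ereg, 7.44% for Has2, 9.13% for Hk2 and 5.20% for Klf5. Their place in the class thus also comes from the narrow lists alone.

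The E-boxes at the Myc summits of Hk2 and Has2, and the TATA box that starts 27 bases before the annotated start of Ereg, are shown in capitals, since both motifs mark well-known kinds of promoter.
Hk2, chr6:82723594-82723623 (-): gactgctgcgccCACGTGggaggagccccc
Has2, chr15:56523962-56523991 (-): actccttcaaccCACGTGgctgggctggga
Ereg, chr5:91503604-91503633 (+): cctccccagactTATAAAggtcgctgcgct

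Some members of the class did not have this course. Zfp281, a zinc finger gene, had 87.9% before OHT, 99.8, 85.2 and 89.4% at 10, 20 and 30 min, and 0 and 77.8% at 2 and 4 h. Il6st, the gene of the gp130 receptor, had 26.3% before OHT, 0, 16.7 and 85.7% at 10, 20 and 30 min, and 0.924 and 94.99% at 2 and 4 h. These 2 were low at 2 h and high again at 4 h. Of the 72 genes, 5 (6.94%) were covered at 4 h and 55 (76.4%) were not covered. Over all genes 10.5% were covered at 4 h and 84.1% were not covered.

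Over all genes covered in the broad list at 30 min, 84.1% were kept and 4.80% gone, and the counts of the growth lists stand beside those shares. Of 23 cytosolic ribosomal protein genes, 22 were covered in the broad list at 30 min and all 22 were kept, with a mean of 87.7% before OHT, 94.4, 96.04 and 91.5% at 10, 20 and 30 min, and 93.5 and 93.3% at 2 and 4 h. Of 36 ribosome biogenesis genes 15 were covered at 30 min and 14 kept, with a mean broad cover of 18.98% before OHT, 35.99, 52.3 and 38.5% at 10, 20 and 30 min, and 39.4 and 34.03% at 2 and 4 h. None of the 36 was gone or only at 2 h in the broad lists. The narrow lists had 25 of the 36 kept, and Wdr43, a list-gap gene, was gone, while Noc4l was only at 2 h, with 0% before OHT, 48.1, 92.7 and 3.35% at 10, 20 and 30 min, and 63.4 and 2.12% at 2 and 4 h. All 7 translation factor and tRNA synthetase genes covered in the broad list at 30 min, all 9 chaperone genes, all 3 nucleotide synthesis genes, all 3 mitochondrial genes, all 6 glycolysis genes and all 5 cell cycle genes were kept. Of 15 splicing factor genes covered then 14 were kept, of 5 integrated stress response genes 4, of 3 circadian genes 2, with Bhlhe40 gone, and both covered Myc network genes. In the narrow lists single members of these lists were gone: Hk2 of glycolysis, the chaperone gene Dnajb1 (79.9% and 19.3% at the 2 times), the mitochondrial prohibitin gene Phb (57.1% and 22.9%), the matrix genes Tnc (72.1% and 2.66%) and Fbln2 (51.2% and 19.8%), and the list-gap gene Skp2. In the plot of broad cover of 4 gene lists, the ribosome biogenesis genes lie near the diagonal and the MAPK feedback genes with cover lie under it.

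**Figure D3:**
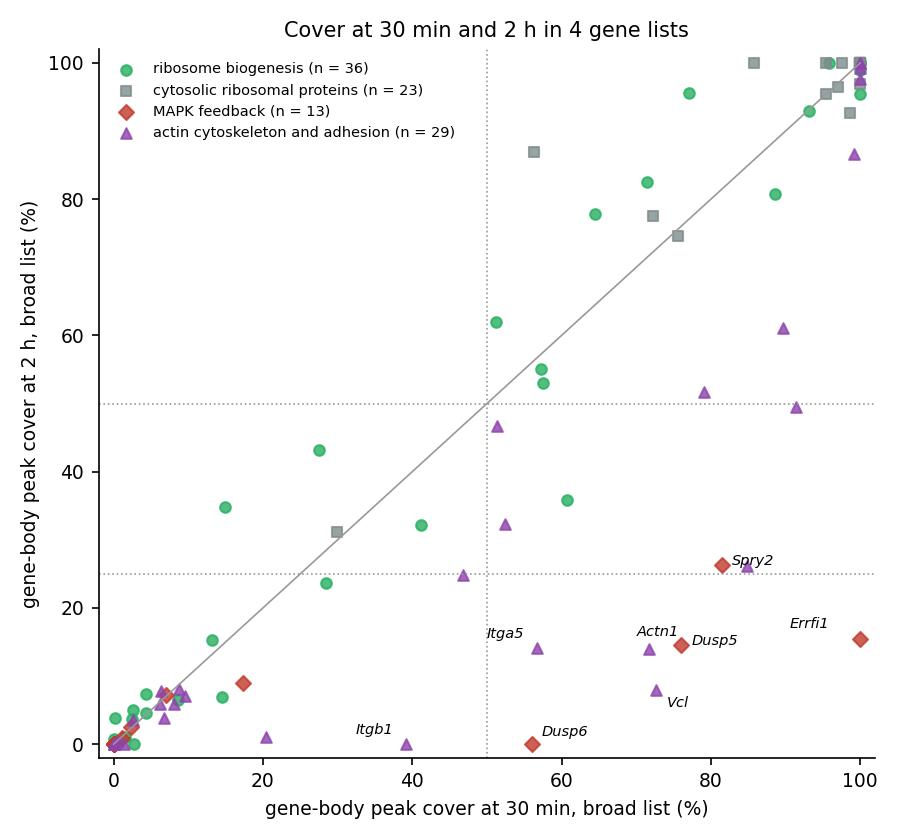
Broad cover of the gene body at 30 min (x axis, percent) and at 2 h (y axis, percent) for the genes of 4 lists, 1 library per time; the diagonal marks equal cover and the dotted lines the limits of 25 and 50%. The 4 MAPK feedback genes covered at 30 min lie below the diagonal (Errfi1 at 100% and 15.5%), whereas 22 of 23 ribosomal protein genes lie above 50% at both times.

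Of 19 immediate-early transcription factor genes, 8 were covered in the broad list at 30 min and 7 kept. Egr1, Jun and Ier5 were at 100% at both times, and Egr2, a zinc finger factor of the same family as Egr1, had 54.9% and 25.3%. Klf6 was kept with 99.1% and 64.2%, and Myc itself with 95.9% and 73.4%, where reads from the MycER construct could also map and their part was not tested. The growth factor and cytokine list had 5 of 18 covered in the broad list at 30 min, and all 5 were kept. Hbegf, an EGF receptor ligand, was kept near the limit with 99.3% and 51.9%, and Ptgs2, the inducible cyclooxygenase, with 100% and 92.5%. Of 17 TGF-beta and YAP target genes 7 were covered and 6 kept, and Ctgf, Cyr61 and Thbs1 were at 100% at both times. Smad7, the inhibitor of TGF-beta receptors, had 84.3% and 42.5%. Lower by 20 points or more in the broad lists were 4 of the 19 immediate-early genes, 1 of the 18 growth factor genes and 2 of the 17 TGF-beta and YAP target genes, with none higher, against 0.564% lower and 0.951% higher over all genes. The p53 and cholesterol lists had 1 covered body each in the broad list at 30 min and 0 kept and 0 gone, and the NF-kB list had no body covered then. In the narrow list 9 of the 18 growth factor genes were covered at 30 min, of which 6 were kept. The other 3, Fgf7, Has2 and Ereg, were gone, 2 of them without a list gap. Gone in the narrow lists were also 1 of 13 covered immediate-early genes and 0 of 11 covered TGF-beta and YAP target genes, against 5.23% of all genes covered then.

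Of the 1817 kept genes in the narrow lists, 200 without a list gap were not covered in the narrow list at 0 min. Gm88, one of the 200, had a broad cover of 100% at 0 min, so that the narrow list at 0 min does not always show a body without peaks. Mrpl22 encodes a mitochondrial ribosomal protein, and its narrow cover was 0% before OHT, 99.3, 100 and 100% at 10, 20 and 30 min, and 86.2 and 100% at 2 and 4 h. Polr2f, a subunit shared by the nuclear RNA polymerases, had 0.944% before OHT, 100, 100 and 99.3% at 10, 20 and 30 min, and 94.02 and 97.9% at 2 and 4 h. Mki67ip encodes a nucleolar protein and had 0.510% before OHT, 87.02, 100 and 98.7% at 10, 20 and 30 min, and 100 and 77.2% at 2 and 4 h. Timm9, of mitochondrial protein import, had 0.256% before OHT, 100, 99.3 and 98.01% at 10, 20 and 30 min, and 89.9 and 62.6% at 2 and 4 h. Tfrc, the transferrin receptor of iron uptake, had 2.74% before OHT, 64.7, 100 and 99.3% at 10, 20 and 30 min, and 85.6 and 86.6% at 2 and 4 h. These 5 were near 0 before OHT and above 60% at each later time. Irx3, a homeobox gene, was kept with 100% and 50.8% at the 2 times, just above the limit. Atad2, a bromodomain ATPase, had 0% before OHT, 26.3, 0 and 99.8% at 10, 20 and 30 min, and 52.6 and 0% at 2 and 4 h. The broad cover of Atad2 was 0% before OHT, 3.79, 11.4 and 1.75% at 10, 20 and 30 min, and 0 and 6.78% at 2 and 4 h, so that its highest broad value was at 20 min, where the narrow list had 0. Among the Myc network genes, Max had a narrow cover of 0% before OHT, 48.4, 100 and 86.3% at 10, 20 and 30 min, and 85.8 and 28.1% at 2 and 4 h.

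An E-box also lay at the Myc summits of Tfrc and Timm9, 2 of the kept genes with strong Myc peaks.
Tfrc, chr16:32609384-32609413 (+): ttccgccgggagCACGTGgtggcggctgga
Timm9, chr12:72237646-72237675 (-): catcactgccccCACGTGttctcagctttc

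Genes covered only at 2 h had mixed functions. Tpi1 encodes the glycolytic enzyme triose phosphate isomerase, and its broad cover was 39.6% before OHT, 50.9, 53.2 and 6.68% at 10, 20 and 30 min, and 53.8 and 50.9% at 2 and 4 h. Slc25a3, the mitochondrial phosphate carrier, had 53.7% before OHT, 69.2, 78.9 and 19.4% at 10, 20 and 30 min, and 65.4 and 72.99% at 2 and 4 h. Gnb2, a G protein beta subunit, had 96.2% before OHT, 81.2, 94.2 and 8.30% at 10, 20 and 30 min, and 70.9 and 57.8% at 2 and 4 h. For these genes the 30 min library was the low one, and the other 5 times were higher. Exosc4, of the RNA exosome, had 19.03% before OHT, 19.2, 74.9 and 5.96% at 10, 20 and 30 min, and 51.5 and 47.4% at 2 and 4 h. Emg1, a methyltransferase of ribosome assembly, had 15.2% before OHT, 31.5, 78.3 and 11.8% at 10, 20 and 30 min, and 57.1 and 17.2% at 2 and 4 h. Dlx2, a homeobox gene, was covered in the broad lists at 2 h and at no other time, with 9.34% before OHT, 1.07, 13.3 and 6.10% at 10, 20 and 30 min, and 65.7 and 18.9% at 2 and 4 h, while its narrow cover was at least 71.2% at every time. 5730596B20Rik had 0% before OHT, 0, 20.9 and 0% at 10, 20 and 30 min, and 52.9 and 0% at 2 and 4 h. Dlx2 and 5730596B20Rik were the 2 genes of the class that were not covered in the broad lists at any earlier time. Of the 21 genes, 20 were kept in the narrow lists, where Tpi1 had 75.3% and 100% at the 2 times.

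Among the 12 narrow genes only at 2 h with the largest difference 9 had a list gap, and the others were Gm15217, Tha1 and Inha. Inha, the inhibin alpha gene, had 0% before OHT, 0, 74.9 and 0% at 10, 20 and 30 min, and 95.8 and 0% at 2 and 4 h. Ets2, a factor of the Ets family, had 71.5% before OHT, 86.4, 98.8 and 16.3% at 10, 20 and 30 min, and 98.9 and 57.3% at 2 and 4 h. Cenpa, the centromeric histone, had 46.1% before OHT, 79.8, 74.1 and 8.48% at 10, 20 and 30 min, and 92.9 and 71.8% at 2 and 4 h. These 3 were low at 30 min between higher values at 20 min and 2 h.

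In the narrow lists 7 of the genes only at 2 h were not covered at any earlier time: Aurkb, Col2a1, Cyp2w1, Mxi1, Pigy, Polr2g and Sept11, of which Sept11 has a list gap and a broad cover of 79.5% at 20 min. Col2a1, a cartilage collagen gene, had a narrow cover of 11.5% before OHT, 11.9, 13.1 and 11.9% at 10, 20 and 30 min, and 74.6 and 34.8% at 2 and 4 h. Mxi1 encodes a Max partner that opposes Myc, and had 20.1% before OHT, 19.7, 23.6 and 21.7% at 10, 20 and 30 min, and 55.9 and 25.1% at 2 and 4 h. Aurkb, a mitotic kinase, had 22.7% before OHT, 23.8, 22.5 and 17.2% at 10, 20 and 30 min, and 57.1 and 59.3% at 2 and 4 h. Polr2g, a subunit of RNAPII, had 7.47% before OHT, 7.38, 3.59 and 6.25% at 10, 20 and 30 min, and 59.9 and 9.44% at 2 and 4 h. Aurkb was as high at 4 h as at 2 h, while Mxi1 and Polr2g were near their earlier values at 4 h. Broad covers of Mxi1 (9.56% and 9.21%) and Col2a1 (7.19% and 8.33%) were near level between 30 min and 2 h, and Aurkb and Polr2g were at 0% at both times.

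Among genes covered at 2 h and not at 30 min, the Myc summits of Tpi1, Aurkb and Polr2g held the following E-boxes.
Tpi1, chr6:124763700-124763729 (-): ataagcaagtggCACGTGtcccccagattg
Aurkb, chr11:68859271-68859300 (+): gttgggcggatcCACGTGcccgctatccgc
Polr2g, chr19:8872934-8872963 (-): aagatgttttatCACGTGagctggatgcgg

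Few genes differed by at least 20 points in the same direction in both kinds of list, when list-gap genes were left out. Lower at 2 h were 9: Anxa5, Dusp6, Hnrnpa3, Itgb1, Pvr, Rpusd3, Rtn4, S100a10 and Slc5a3. Higher at 2 h were 15, among them Tpi1, the mitochondrial enzyme gene Acadvl (narrow 79.5% and 100%, broad 8.96% and 41.4%), the respiratory chain gene Uqcr11 (narrow 50.9% and 88.5%, broad 0% and 26.4%) and the matrix proteoglycan gene Ogn (narrow 43.8% and 100%, broad 0% and 40.3%). No gene was lower in one kind and higher in the other by that much.

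The place of the cover within the body was then described in 10 equal parts from the 5′ to the 3′ end. For the 72 narrow genes gone by 2 h, mean cover at 30 min was 88.1% in the first part, 64.0% in the fifth and 72.9% in the last. At 2 h it was 56.6% in the first part, 22.1% in the second, 5.99% in the fifth and 25.3% in the last, and 64.5% in the 3000 bp past the gene end. Cover at 2 h thus lay at both ends, near the start and past the end, and the middle was nearly free of peaks, as it was low at 0 min (55.8% in the first part, 19.3% in the fifth and 44.0% in the last). For the 22 broad genes gone, the first part had 78.0% at 30 min and 45.3% at 2 h, the fifth 71.4% and 10.6%, and the last 57.9% and 5.53%. The class only at 2 h had the same shape at the other time: in its 85 narrow genes the first part had 57.7% at 30 min and 85.8% at 2 h, the fifth 1.05% and 62.3%, and the ninth 5.66% and 75.3%. Kept genes had at least 84.9% in every part at both times. The class rule itself sets how much of a body is covered at 30 min and 2 h. The profiles at these times therefore describe only where along the body the cover lay.

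**Figure D4:**
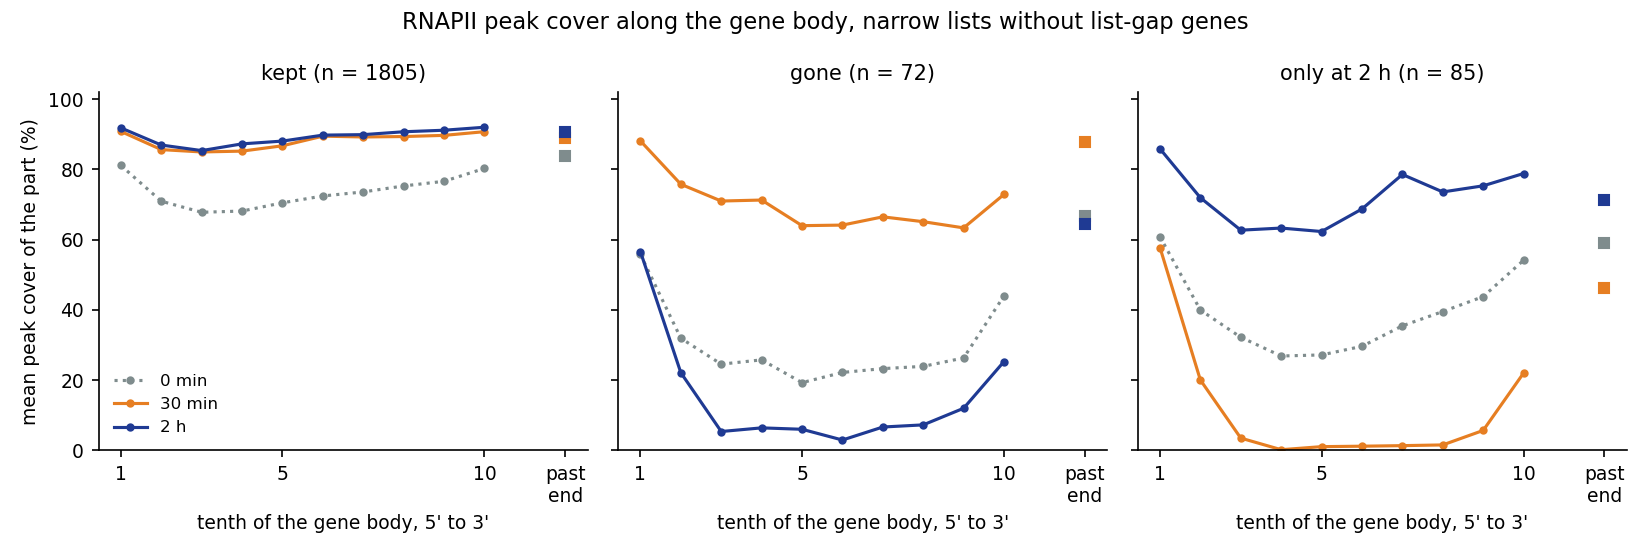
Mean narrow cover (percent, y axis) in 10 equal parts of the gene body from the 5′ to the 3′ end and in the 3000 bp past the end (x axis) at 0 min, 30 min and 2 h, for kept, gone and only-at-2 h genes without list gaps. In the gone class at 2 h the fifth part was at 5.99% while the first was at 56.6%, and in the class only at 2 h the 30 min profile has the same shape.

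Promoters of genes whose bodies were not covered still held RNAPII. A promoter was 1000 bp either side of an annotated start, and a narrow RNAPII peak lay there at 2 h for 71 of the 72 genes gone without a list gap, and a broad peak for 22 of the 22 broad genes gone. Of all 18089 genes, 9517 (52.6%) had a narrow promoter peak at 2 h and 9048 had a broad one. Of the 85 narrow genes only at 2 h, 75 had a narrow promoter peak at 30 min, against 52.8% of all genes.

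Myc promoter peaks were present at most members of all classes, and at nearly the same genes at both times. By the narrow lists 92.6% of kept genes had a Myc promoter peak at 30 min (Wilson 95% interval 91.3 to 93.7%) and 93.3% at 2 h (92.1 to 94.4%). Of the genes gone, 94.5% had one at 30 min (88.5 to 97.5%) and 95.4% at 2 h (89.7 to 98.0%), and without list-gap genes 93.1% (84.8 to 97.0%) and 94.4% (86.6 to 97.8%). Of those only at 2 h, 87.5% had one at 30 min (79.8 to 92.5%) and 88.5% at 2 h (80.9 to 93.3%). The intervals, which cover counting error only, overlap between gone and kept genes. Over all genes tested the shares were 53.5% and 56.1%, and over genes not covered at both times 44.3% and 47.2%. By the broad lists 94.0% of kept genes (91.2 to 96.0%), 21 of 22 genes gone (95.5%, 78.2 to 99.2%) and 18 of 21 only at 2 h (85.7%, 65.4 to 95.02%) had a peak at 30 min, and 19 of the 21 at 2 h (90.5%, 71.1 to 97.3%).

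Genes whose body cover was gone by 2 h still had their Myc promoter peak, with few exceptions. Of the 109 narrow genes gone, 103 had a Myc peak at both times, 1 (Anxa3) at 2 h alone, 5 (2310009B15Rik, 4933428G20Rik, Il6st, Lyl1 and Tnc) at neither, and 0 at 30 min alone. Of the 22 broad genes gone, 21 had one at both times and Myl12b at neither. Of the 104 genes only at 2 h, 91 had one at both times, Aes at 2 h alone and 12 at neither, so that cover at 2 h seldom went with a Myc peak that was absent at 30 min. In the broad class only at 2 h, Tuba4a had a Myc peak at 2 h alone. Of the kept genes 15 had one at 2 h alone and 2, BC100451 and Esrp2, at 30 min alone, and over all genes 505 (2.79%) and 42 (0.232%) did.

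The classes differed more in the strength of the Myc peak than in its presence. Promoter peaks were ranked by the authors' fold enrichment within each Myc list, and the median rank is given as a percentile, where 100 is the strongest and the median of all promoter peaks is 50.01 at both times. Without list-gap genes the median of narrow kept genes was 74.4 at 30 min and 75.8 at 2 h, that of genes gone 55.0 and 61.7, and that of genes only at 2 h 55.1 and 56.8. Kept genes not covered at 0 min stood at 84.6 and 86.1. Genes gone and not covered at 0 min, the like class without lasting cover, stood at 71.5 and 70.9. With list-gap genes included, narrow kept genes stood at 74.3 and 75.6. Genes gone then stood at 62.5 and 68.7, and genes only at 2 h at 58.8 and 59.8. The broad medians were 85.4 and 85.1 for kept genes, 44.6 and 52.95 for genes gone, and 64.6 and 57.7 for genes only at 2 h.

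Among members with a Myc promoter peak, the share in the strongest 20% of promoter peaks was also higher for kept genes than for genes gone. By the broad lists 59.1% of kept genes (54.0 to 64.1%) and 19.0% of genes gone (7.67 to 40%) were in that group at 30 min, and at 2 h 58.2% and 19.0%. The intervals of the 2 broad classes do not overlap. Without list-gap genes 42.5% of narrow kept genes (40.11 to 44.8%) and 28.4% of narrow genes gone (19.0 to 40.09%) were in that group at 30 min. These intervals lie next to each other and barely fail to overlap. At 2 h the intervals overlap, with 43.1% of kept genes (40.7 to 45.5%) and 29.4% of genes gone (19.9 to 41.1%). Of the kept genes without a list gap and not covered at 0 min, 58.6% were in that group at 30 min (51.6 to 65.4%). Of the genes gone with the same 2 limits, 33.3% were (20.2 to 49.7%). Genes of 1 class can share a Myc peak with a neighbour, so these shares are over genes and not over independent sites. Among the genes named above, Timm9 had a fold enrichment of 103 in the 30 min list, Klf16 of 78.5, Tfrc of 63.0, Bhlhe40 of 38.1, Dusp5 of 10.1 and Btg2 of 7.02.

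**Figure D5:**
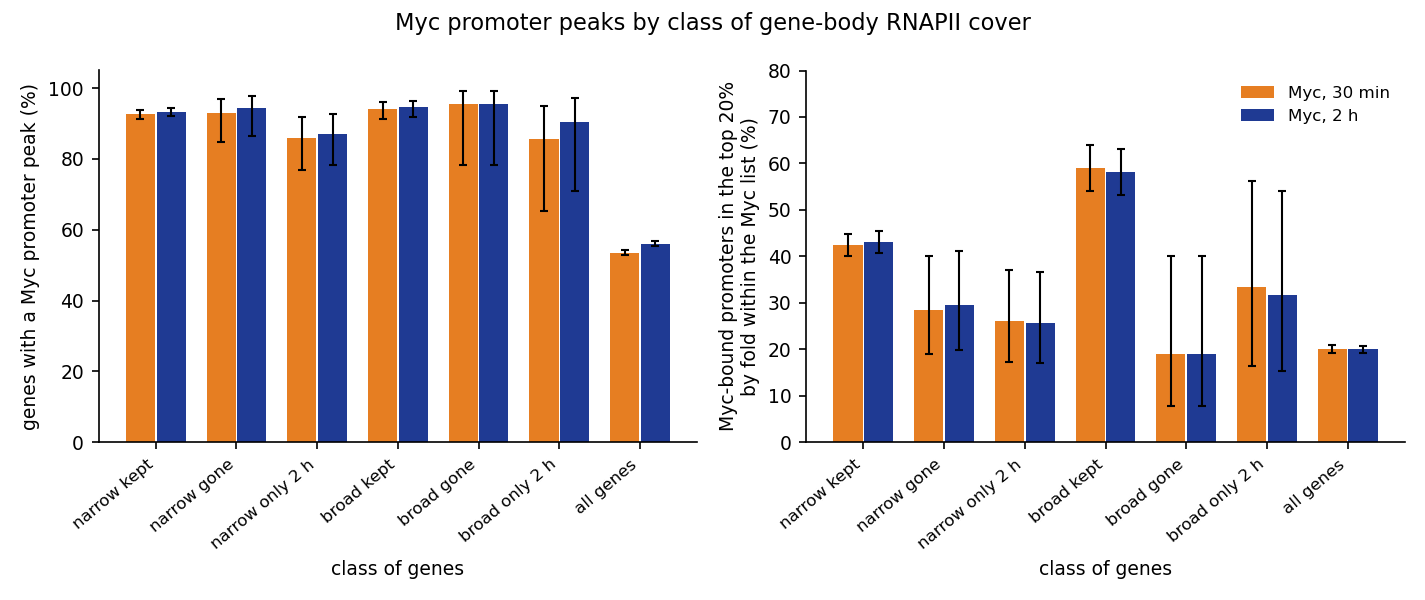
Share of genes with a Myc promoter peak, and share of these peaks in the strongest 20% of promoter peaks (y axes, percent), at 30 min and 2 h for each class in the narrow and broad lists; bars are shares of genes, the narrow classes are without list-gap genes, and whiskers are Wilson 95% intervals for counting error. Between 85.7 and 95.5% of each class had a Myc peak, whereas in the broad lists 59.1% of kept and 19.0% of gone genes are among the strongest peaks at 30 min.

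The E-box was counted over all Myc promoter summits. It lay in the 200 bp window for 34.5% of kept genes in the broad lists at 30 min (29.8 to 39.6%), 6 of 21 genes gone (28.6%, 13.8 to 49.96%) and 1 of 18 genes only at 2 h (5.56%, 0.988 to 25.8%), against 18.1% of all genes with a Myc promoter peak. At the 2 h summits the broad shares were 34.1% of kept genes (29.4 to 39.1%) and 5 of 21 genes gone (23.8%, 10.6 to 45.1%). For genes only at 2 h they were 3 of 19 (15.8%, 5.52 to 37.6%), against 17.7% of all genes. The shares in the narrow lists without list-gap genes at 30 min were 23.8% of kept genes (21.8 to 25.9%), 20.9% of genes gone (12.9 to 32.1%) and 19.2% of genes only at 2 h (11.8 to 29.7%). The intervals of kept and gone genes overlap in both kinds of list. For the 11 genes whose E-box is printed above, the same site lay at the summit of both the 30 min and the 2 h Myc list. Other named genes had one at the summit of 1 list only: Angptl2, Brf2, Rtn4, Tcea2 and Tuba4a at 2 h, and Anxa2 and Pigy at 30 min.

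Promoter windows, from 250 bp before to 50 bp after the gene start, were searched on both strands for 3 other motifs. The CArG box, 2 C, then 6 bases that are A or T, then 2 G, lay in 2 of 22 broad genes gone (9.09%, 2.53 to 27.8%), Dusp5 and Anxa5, in 2 of the 109 narrow genes gone (1.83%) and in 1.30% of all genes with the same window, and in 6 of the 385 kept genes, Actb, Egr1, Flna, Gapdh, Rnd3 and Tagln. TATAAA lay in 13.9% of the narrow genes gone without a list gap (7.72 to 23.7%), among them Ereg, Spp1 and Tnc, in 0 of the 22 broad genes gone and in 10.1% of all genes. The AP-1 site TGANTCA lay in 1 of the 22 (Anxa2) and in 6.45% of all genes.

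Gene length differed between the classes as well. The median gene length was 9921 bp for kept genes in the narrow lists, 24702 bp for genes gone and 9026 bp for genes only at 2 h, against 22391 bp over all genes. The broad medians were 6530, 14149 and 4592 bp. Without list-gap genes the narrow medians were 9838, 23594 and 6774 bp. Genes gone were therefore longer than kept genes in both kinds of list, and near the median of all genes in the narrow lists. Another annotated gene overlapped 38.9% of narrow kept genes, 37.6% of narrow genes gone (26.4% without list-gap genes) and 34.0% of all genes, so that part of the cover cannot be assigned to one gene. A Miz1 promoter peak, from the antibody 10E2 in resting 3T9 fibroblasts with MycER, was present at 10 of the 22 broad genes gone (45.5%, 26.9 to 65.3%), 29.4% of broad kept genes (25.02 to 34.1%), 20.0% of narrow kept genes (18.2 to 21.9%), 24.8% of narrow genes gone (17.6 to 33.6%) and 9.55% of all genes. Miz1 is a zinc finger partner of Myc. The Miz1 intervals of kept and gone genes overlap in both kinds of list.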

How the data were processed

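Peak lists of 6 RNAPII and 6 Myc libraries and of 1 Miz1 library were used. Reads were aligned to mm9 with BWA 0.6.2-r126, and MACS2 2.0.9 is named, per the submitters' processing notes. Narrow RNAPII lists and the Myc lists came from MACS 1.4.2 and broad RNAPII and Miz1 lists from MACS 2.0.9, each called per library against a control, per the file headers. The p-value limit was 1.00e-08 (Miz1 1.00e-02), with 1 duplicate tag kept by MACS 1.4.2 and 2 by MACS 2.0.9. The deposited narrow lists give a score per peak, -10 times the log10 of its p-value, the deposited broad lists the -log10 of the p-value, and both the fold enrichment, a ratio set by the authors' peak caller. The scores were used only to filter and rank peaks within a list.

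Genes were protein-coding genes of GENCODE vM1 on NCBIM37 (mm9). Cover, promoter peaks (overlap of at least 1 bp) and motifs were computed with Python 3.11.15, numpy 2.4.6, pandas 2.3.3 and scipy 1.17.1, drawn with matplotlib 3.10.9, and the cover code was tested on simulated data. Intervals are Wilson 95% intervals. No test between times was made, as there was 1 library per time, and the depth limits which peaks were called. The classes and the 21 gene lists (510 symbols, 465 tested) were chosen with earlier results of these data known.

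Named genes were, in the narrow lists, the 12 kept genes not covered at 0 min with the largest difference from 0 min, the 6 longest kept bodies, and the 12 gone and 12 only-at-2 h genes with the largest difference, then members of the gene lists and the genes gone in both kinds of list. The same ranking without list-gap genes, all broad genes gone or only at 2 h, and genes differing by 20 points in both kinds of list were added after seeing the data. Alternatives were the other kind of list, other cover limits, stricter peaks, equal numbers of peaks, the longest transcript, genes overlapping no other gene, and a Myc summit inside the promoter.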

Additional observations from a re-analysis of the deposited data

How the results depend on the processing

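Of the alternative values for counts and Myc shares, 78 stayed near the reported value and 24 moved. A share was near when it lay inside the Wilson interval of the reported share, and a count when it lay within a set factor of the reported count. The direction of counts and shares was not judged, so none could be called reversed. With broad lists there were 385 kept, 22 gone and 21 only-at-2 h genes, and 94.0% and 94.5% of kept genes had a Myc promoter peak at 30 min and 2 h. With covered set from 75%, 58 genes were gone and 44 only at 2 h, 79.5% of the latter with a Myc peak at both times. With not covered set under 50% there were 268 and 361, and under 10% there were 49 and 49, with Myc shares of 75.5% and 77.6% for only at 2 h. Among genes overlapping no other gene, 1110 were kept, 68 gone and 68 only at 2 h, and 93.8% and 94.6% of kept genes had a Myc peak. With the Myc summit inside the promoter, the shares were 86.0% and 86.4% for kept genes and 84.4% at 2 h for genes gone. Without list-gap genes, 72 were gone. Peaks of a p of 1e-12 or smaller, equal numbers of peaks, the longest transcript and joined narrow and broad lists left all 9 values of each near the reported ones. Leaving out list-gap genes and joining the lists were chosen after seeing the data, as were all settings for named genes. Of 352 values for named genes, 271 stayed, 64 moved and 17 reversed. From narrow to broad lists the difference, 2 h minus 30 min, became 27.2 points for Nedd4, 9.39 for Sf3b3, 3.62 for Angptl2, 5.30 for Arglu1, -2.63 for Ndufab1, -22.2 for Khdrbs1, -1.98 for Mef2d, -5.53 for Rars, -25.6 for Ahcyl1, -13.2 for Tatdn2, -8.75 for Capn12 and -57.8 for Actn1, which all have a list gap. From broad to narrow lists it became 96.1 points for Actn1, 71.7 for Msn, -100 for G430095P16Rik and -3.23 for Cfb, and with peaks of 1e-12 or smaller 9.04 for Atxn7l3b, and the cause was not tested. No paired analysis was possible because each time had 1 library, and replicate numbers only name them. Without replicates, a difference between 30 min and 2 h cannot be told apart from one between 2 libraries, and depth limits which weak peaks were listed.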
